A study of Homo sapiens with 6 samples.

Results

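The lysyl oxidase family of UE7T-9 cells, a mesenchymal stem cell line from human bone marrow, was examined in control cells and in cells in which SRRM4, a splicing regulator best known from neurons, had been knocked out. Its members were chosen by gene symbol, LOX, LOXL1, LOXL2, LOXL3 and LOXL4, and all 5 were found among the 58735 genes of the count table and were among the 15341 that passed the filter on low counts. The 3 control libraries came from UE7T-9 cells of WT genotype, for which no vector control is described in the sources used here. The study does name lentivirus infection among possible reasons why its control lacked CD90. The 3 SRRM4 KO libraries came from 1 UE7T-9 line, made with a lentiviral CRISPR v2 vector, selected with puromycin and cloned by dilution to 1 cell per well. No check that the line is a single clone is described. By the study's own account, SRRM4 protein was not lost completely in this line. The handling of the control libraries is not described in full. Effects of vector, puromycin selection and cloning therefore cannot be told apart from those of SRRM4 here. Both groups were grown in DMEM, and their mRNA was sequenced without strand information. The study states that its experiments were repeated, but not whether the libraries of a group came from separate cultures, so each p-value measures the spread between these libraries, which may be technical.

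Lysyl oxidases are secreted copper enzymes that turn lysine and hydroxylysine side chains of collagen and elastin into aldehydes, which then react with neighbouring chains to form the cross-links that make the matrix strong. LOX and LOXL1 are made as proenzymes and are cut to their active form outside the cell by proteases of the BMP1 family, whereas LOXL2, LOXL3 and LOXL4 carry scavenger receptor domains in front of the shared catalytic domain. In bone, LOX is the classic enzyme of collagen cross-linking, and loss of its activity weakens bone, vessels and connective tissue.

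The libraries held between 21496117 and 23868323 counts, so that 3 counts, the limit that a count of 0 allows, correspond to 0.123 to 0.139 CPM (counts relative to the TMM-scaled library size), for counting error only. SRRM4 itself had 0 counts in all 6 libraries, so its RNA gives no check of the knockout. Replicate libraries differed by more than counting noise, and control replicate 1 stood farthest from its group, with a chi-square per degree of freedom of 20.9 and 21.4 against the other controls and 5.44 between those. All 5 mesenchymal markers examined were detected, and their summed level was 1631 to 1690 CPM in control and 1807 to 1898 CPM in SRRM4 KO libraries. Of these, THY1 and PDGFRA were called lower in SRRM4 KO cells (log2 fold changes of -2.43 and -1.54), ENG was lower by the adjusted p alone (-0.34), and NT5E and VIM were higher by the adjusted p alone (0.52 and 0.36). The summed haematopoietic markers reached 19.7 to 21.2 CPM in control and 17.9 to 21.0 CPM in SRRM4 KO libraries, and were made up almost wholly of CD14 (15.5 to 17.5 and 14.7 to 16.9 CPM) and CD34 (3.06 to 4.17 and 3.09 to 3.99 CPM), neither of which passed the adjusted p. PTPRC, the general leukocyte marker, had at most 2 counts in a library. Endothelial and epithelial markers summed to at most 2.18 and 1.75 CPM in any library. The part of these markers in the results was not tested, and in bulk RNA fewer cells of a type and less RNA per cell cannot be told apart.

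The family did not move as a whole in SRRM4 KO cells. LOX, the most abundant member in control cells, was 2.65-fold lower, and LOXL4, the rarest, was 4.57-fold lower. LOXL3 was 1.56-fold lower, LOXL1 was 1.19-fold higher, and the estimate for LOXL2 was close to 0 on the log2 scale. A gene was called where the adjusted p of edgeR's quasi-likelihood test was under 0.05 and the log2 fold change went beyond 1. By that rule 2 of the 5 members were called lower and 0 higher, where 7.14% of all genes tested were called lower and 5.45% higher. With the adjusted p alone 3 members were lower and 1 was higher, against 20.9% and 20.7% of all genes. DESeq2 made the same calls, and at an unadjusted p under 0.05 edgeR had the same 3 members lower and LOXL1 higher, against 24.7% and 24.3% of all genes. The 3 control and 3 SRRM4 KO values did not overlap for 4 members, which was also true of 51.8% of all genes. An exact permutation test of 3 against 3 libraries cannot give a two-sided p below 0.10, so single members were tested only in the fit across all genes.

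**Figure D1:**
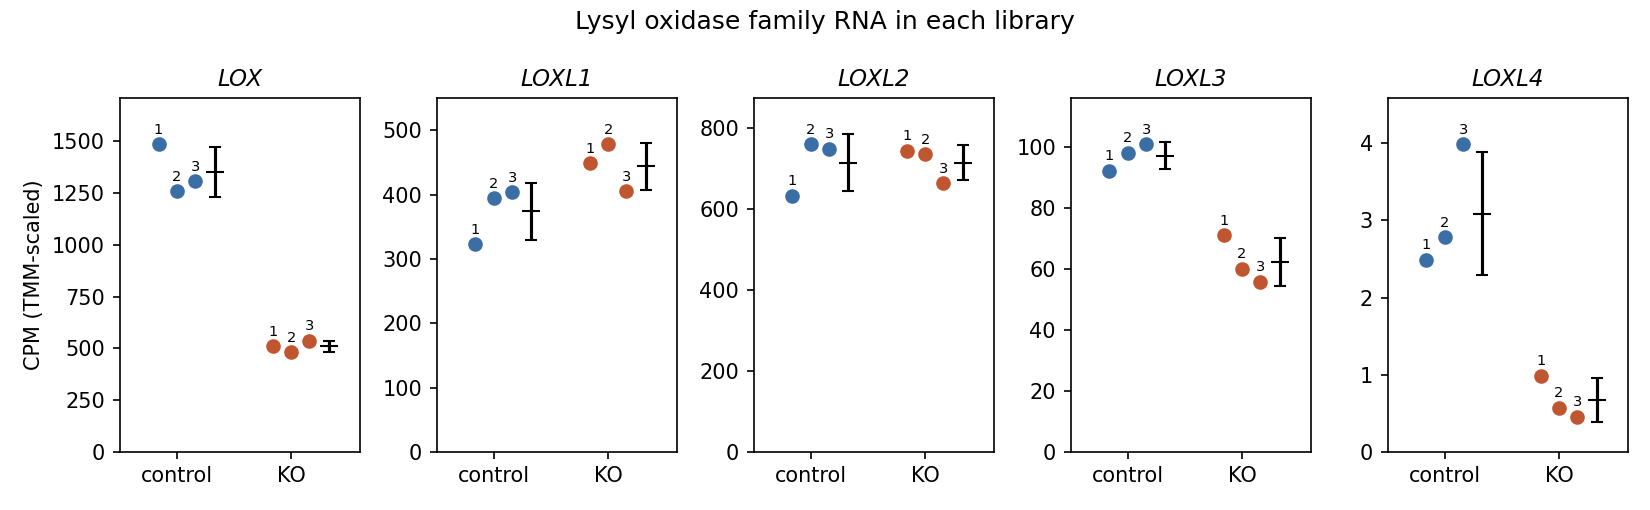
CPM of each family member (vertical axis, TMM-scaled, from 0 with a scale of its own for each gene) in the 3 control and 3 SRRM4 KO libraries, numbered by replicate, with the mean and SD of each group in black. LOX, LOXL3 and LOXL4 lie lower in every SRRM4 KO library than in every control library, LOXL2 overlaps, and for LOXL1 the groups are parted by less than 1 CPM.

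LOX (ENSG00000113083), the founding member and main collagen cross-linking enzyme, occupies chr5:122063195-122078360 (GRCh38, GENCODE release 29) on the minus strand and has 7 exons in its principal coding transcript. It reached 1486, 1258 and 1306 CPM in control replicates 1 to 3 and 510, 481 and 537 CPM in SRRM4 KO replicates 1 to 3. The highest SRRM4 KO library was thus far below the lowest control library. The means were 1350 ± 120 CPM and 509 ± 27.9 CPM (SD, n = 3 each), a log2 fold change of -1.41 (SE 0.0780, 95% interval -1.57 to -1.24) with an adjusted p of 2.25e-09 in edgeR. These values rest on 27117 to 32215 counts per control library and 11369 to 11816 per SRRM4 KO library. Control replicate 1, the library that stood apart, was the highest for LOX, and without it the log2 fold change was -1.33.

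The LOX promoter is shown because LOX is a known target of the hypoxia-inducible factors, whose binding sites share the letters ACGTG as one form of their core, and because genes of that system were measured here. The RefSeq promoter table (GRCh38.p14) gives 3 starts for LOX, and the first listed start of each gene was used. The 250 bases before the first LOX start, chr5:122078260-122078509 on the minus strand, held ACGTG 4 times over both strands, at 185, 116, 98 and 42 bases before the start. The windows of the other 2 LOX starts, which overlap each other, held ACGTG once each and GGGCGG 0 times, with 61.2% and 66.4% G and C. Among the first-listed windows of 27305 promoters, all of the same length, 18.7% held it at least once and 0.714% held it at least 4 times. With GCGTG, the other form of the core, counted as well, the LOX window still had 4 matches, and 3.26% of promoters had at least 4 and 43.1% at least 1. A palindromic CACGTG counts as a match on each strand. The stretch below, chr5:122078361-122078509, is the part of the window outside annotated exons, and capitals mark its 2 matches, read as ACGTG or, on the other strand, CACGT. A match is a description of letters and not of a bound site.
LOX promoter, 5′ to 3′: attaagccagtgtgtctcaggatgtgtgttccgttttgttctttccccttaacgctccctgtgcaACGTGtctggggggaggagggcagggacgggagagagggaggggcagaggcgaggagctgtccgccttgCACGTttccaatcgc

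LOXL4 (ENSG00000138131), a matrix amine oxidase of the scavenger receptor subgroup, occupies chr10:98247690-98268250 on the minus strand and has 15 exons. Its level was 2.49, 2.78 and 3.99 CPM in control replicates 1 to 3 and 0.987, 0.575 and 0.454 CPM in SRRM4 KO replicates 1 to 3. The groups did not overlap, but the values rest on 54, 60 and 89 counts in control libraries and 22, 14 and 10 counts in SRRM4 KO libraries. The means were 3.09 ± 0.794 CPM and 0.672 ± 0.280 CPM (SD, n = 3 each). The log2 fold change was -2.19 with an SE of 0.396 and a 95% interval from -3.04 to -1.35, the widest of the family, and its adjusted p in edgeR was 0.000387.

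The LOXL4 promoter is shown as that of the other called member, and it is unlike that of LOX. Its 250-base window, chr10:98268195-98268444 on the minus strand, had 86.4% G and C against 55.2% for the first LOX window and held ACGTG 0 times. It held the GC box GGGCGG 6 times over both strands, where that LOX window held it once. At least 6 matches were found in 2.26% of all promoters and at least 1 in 42.3%. Capitals mark the 5 matches in the part outside annotated exons, chr10:98268251-98268444, read as GGGCGG or, on the other strand, CCGCCC.
LOXL4 promoter, 5′ to 3′: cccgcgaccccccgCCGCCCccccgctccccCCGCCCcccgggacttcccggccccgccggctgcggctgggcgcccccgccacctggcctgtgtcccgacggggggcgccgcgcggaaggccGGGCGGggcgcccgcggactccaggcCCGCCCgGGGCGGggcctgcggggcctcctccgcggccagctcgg
The first-listed windows of LOXL1 and of LOXL3, which were not called, had 66.8% and 64.4% G and C, and each held ACGTG and GGGCGG 0 times. The LOXL1 window lies wholly within an annotated exon, and the window of the other LOXL3 start held GGGCGG 2 times. The TATA box letters TATAAA, present in 11.1% of all promoters, were found 0 times in the 4 first-listed windows, and CAGAC, the letters of a SMAD site, present in 37.8%, once each in those of LOX and LOXL1 and 0 times in those of LOXL3 and LOXL4.

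LOXL3 (ENSG00000115318), which is needed for palate and spine cartilage in mice, occupies chr2:74532414-74555690 on the minus strand and has 14 exons. It was measured at 92.3, 98.3 and 101 CPM in control replicates 1 to 3 and at 71.1, 60.1 and 55.8 CPM in SRRM4 KO replicates 1 to 3. Every SRRM4 KO library was below every control library. The means were 97.2 ± 4.48 CPM and 62.4 ± 7.91 CPM (SD, n = 3 each), and the log2 fold change was -0.64 (SE 0.101, 95% interval -0.85 to -0.43) with an adjusted p of 0.000111 in edgeR. LOXL3 therefore passed the adjusted p and missed the fold change threshold. The 1016 tested genes of chromosome 2 had a median of -0.25 on the same scale, and all genes one of -0.01.

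LOXL1 (ENSG00000129038), the member most closely tied to elastin renewal, occupies chr15:73925989-73952137 on the plus strand and has 7 exons. It stood at 323, 395 and 404 CPM in control replicates 1 to 3 and at 449, 478 and 405 CPM in SRRM4 KO replicates 1 to 3. The highest control library and the lowest SRRM4 KO library were almost equal, at 404.2 and 405.0 CPM. The means were 374 ± 44.5 CPM and 444 ± 37.0 CPM (SD, n = 3 each), with a log2 fold change of 0.25 (SE 0.0937, 95% interval 0.05 to 0.45) and an adjusted p of 0.0451 in edgeR. This small rise depended on single libraries and on the fit. Without control replicate 1, the lowest library, it was 0.15 with an adjusted p of 0.0618, and without SRRM4 KO replicate 2, the highest, 0.18 with an adjusted p of 0.233. The adjusted p ran from 0.0146 to 0.233 over the alternatives tested against no change.

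LOXL2 (ENSG00000134013), which cross-links type IV collagen of basement membranes, occupies chr8:23297189-23425328 on the minus strand and has 14 exons. Control replicates 1 to 3 held 634, 761 and 750 CPM and SRRM4 KO replicates 1 to 3 held 744, 736 and 665 CPM, so that the groups overlapped. The means were 715 ± 70.6 CPM and 715 ± 43.6 CPM (SD, n = 3 each). The log2 fold change was 0.0003 (SE 0.0820) with an adjusted p of 0.999 in edgeR, and its 95% interval allowed SRRM4 KO levels of 0.886 to 1.13 times those of control.

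Levels of different members can be compared only per length, as CPM per kilobase of the exon length that the count table gives. In control cells LOX led with 243 ± 21.7 CPM per kilobase, ahead of LOXL2 with 125 ± 12.4, LOXL1 with 103 ± 12.2, LOXL3 with 22.3 ± 1.03 and LOXL4 with 0.845 ± 0.217 (SD, n = 3 each). The ranges of neighbours in that order did not overlap, except for LOXL2 and LOXL1, which spanned 111 to 133 and 88.8 to 111 CPM per kilobase. In SRRM4 KO cells the order changed at the top. LOXL2 with 125 ± 7.64 and LOXL1 with 122 ± 10.2 CPM per kilobase overlapped, and LOX followed with 91.9 ± 5.02 CPM per kilobase, below both in every library. LOXL3 with 14.3 ± 1.81 and LOXL4 with 0.184 ± 0.0765 CPM per kilobase kept the last places.

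Summed over the family, the level per length was 489, 492 and 502 CPM per kilobase in control replicates 1 to 3 and 362, 361 and 338 in SRRM4 KO replicates 1 to 3. The groups did not overlap, and the mean of LOX fell by more than the mean of the sum. LOX made up 49.2 ± 4.77% of the family level in control cells and 26.0 ± 2.39% in SRRM4 KO cells. The share of LOXL2 was 25.3 ± 2.33% and 35.4 ± 0.783%, and that of LOXL1 was 20.8 ± 2.29% and 34.5 ± 1.76%, in the same order. LOXL3 held 4.50 ± 0.159% and 4.03 ± 0.403% (SD, n = 3 for each share). Shares are tied to each other, so the larger share of LOXL2 went with a level that was the same in both group means. The ratio of LOX to LOXL2 per length was 2.41, 1.70 and 1.79 in control replicates 1 to 3 and 0.705, 0.673 and 0.831 in SRRM4 KO replicates 1 to 3. LOX thus exceeded LOXL2 in every control library and was below it in every SRRM4 KO library. These levels and shares are descriptions with no test.

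**Figure D2:**
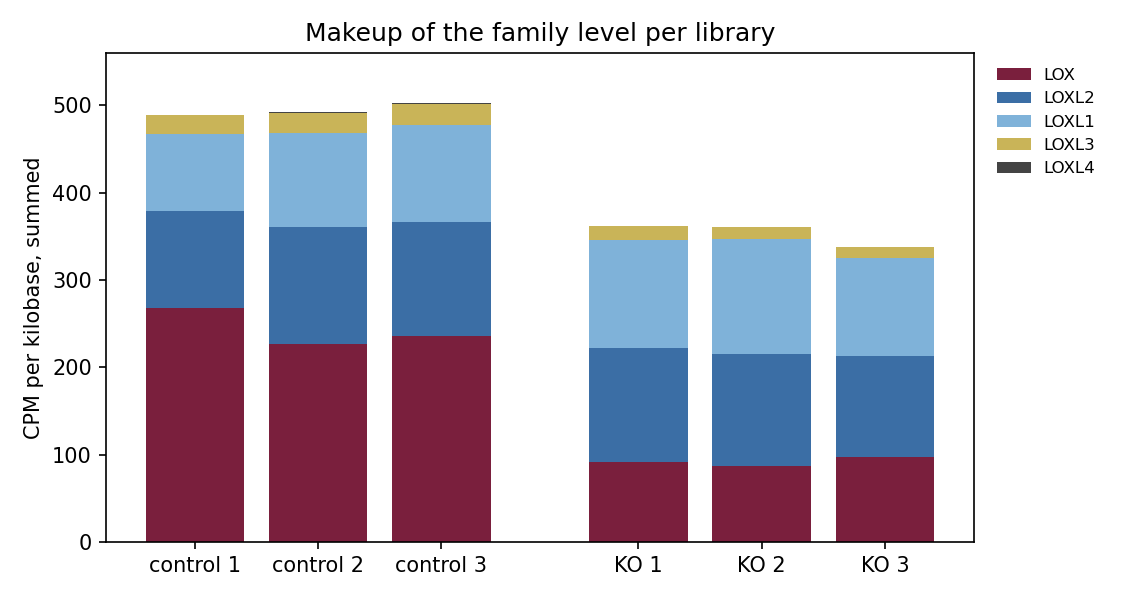
Level of the family per library as stacked bars (vertical axis, CPM per kilobase of exon, summed over the 5 members), for the 3 control and 3 SRRM4 KO libraries. The LOX segment at the base spans 227 to 268 CPM per kilobase in control and 86.8 to 96.8 in SRRM4 KO libraries, while the LOXL2 segment is of similar height in all 6, and LOXL4 is too small to be seen in most bars.

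The members lie on 5 different chromosomes, and their fold changes were set beside those of the genes around them. On the log2 scale, the 743 tested genes of chromosome 5 had a median change of -0.06 and the 40 tested genes nearest to LOX one of -0.28, while LOX stood at -1.41. For LOXL4 the 40 nearest genes had a median of 0.12, and for LOXL3 it was -0.15. The 40 genes nearest to LOXL1 had a median of 0.07 and those nearest to LOXL2 one of 0.29, so that LOXL2 stood below its neighbours and LOXL1 above.

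Because the libraries carry no strand, reads from shared exon bases cannot be assigned to one gene or its partner on the other strand. LOXL1-AS1, an antisense RNA that begins within LOXL1, shares 335 bases with it, 9.21% of the LOXL1 exon bases. It rose from 23.7 ± 0.555 CPM to 32.2 ± 0.248 CPM (SD, n = 3 each), a log2 fold change of 0.44 with an adjusted p of 0.00330 in edgeR, in the same direction as LOXL1. LOXL3 shares 625 bases, 14.3% of its exon bases, with HTRA2, a mitochondrial protease gene (log2 fold change -0.16, adjusted p 0.445), and 216 with DOK1, an adaptor gene (-0.52, adjusted p 0.00766). LOX shares 138 bases with SRFBP1 (-0.07, adjusted p 0.729), which is 2.49% of its exon bases. LOXL2 shares 120 bases with ENTPD4 on its own strand (0.36, adjusted p 0.00231) and 178 with AC090197.1, a transcript of 4 to 34 counts. AL139241.1, which lies across LOXL4 on the other strand, had at most 2 counts in any library and was not tested. The share of a member's reads that came from such bases was not measured.

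For each member the 2 protein-coding genes with the most similar profile were named, by the Euclidean distance between log2 CPM values over the 6 libraries after centring each gene on its mean, among genes with a mean of at least 10 CPM. Nearest to LOX were SLC4A4, a sodium bicarbonate cotransporter, at a distance of 0.0753, and PLPPR4, a membrane protein known from neurons, at 0.0982. Their log2 fold changes were -1.41 and -1.40, beside -1.41 for LOX. Nearest to LOXL4, at the larger distances of 0.649 and 0.659, were CLEC3B, which encodes tetranectin, and ADAMTS10, a secreted metalloprotease. LOXL3 was nearest to C16orf58 (0.0775) and CLSTN3 (0.0947), LOXL1 to GPAA1 (0.0578) and BSG (0.0614), and LOXL2 to SHC1 (0.0279) and RBM15B (0.0449). The libraries fall into 2 groups, so each distance describes 6 points in 2 clusters.

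Genes that work with lysyl oxidases were followed in 7 lists of 72 genes, of which 63 were tested. In SRRM4 KO cells 7 of 10 substrates and 7 of 13 genes for activation and scaffolds were called lower, and no gene of copper supply, lysine hydroxylation or the hypoxia response was called. Over the 7 lists 16 genes, 25.4% of those tested, were called lower and 0 higher, beside the 7.14% and 5.45% of all genes. The lists were chosen with earlier results of these data known, so these shares describe the lists and do not test them. Of the 16, ELN, FMOD, COL11A1 and TLL2 had fewer than 10 counts in at least 1 SRRM4 KO library. Under a stricter filter of 10 or more counts in each library, 14 of 59 list genes (23.7%) and 5.66% of all genes were called lower, with COL4A2 and TWIST1 added. With the adjusted p alone 30 list genes (47.6%) were lower and 10 (15.9%) higher, beside 20.9% and 20.7% of all genes. DESeq2 called the same 16 genes lower and 0 higher, and at an unadjusted p under 0.05 edgeR had 32 lower and 12 higher, where 24.7% of all genes were lower and 24.3% higher.

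Among the substrates, 7 of the 10 tested genes were called lower, with a median log2 fold change of -1.36. COL1A1 and COL1A2, the chains of type I collagen and the main protein of bone, fell from 27881 ± 1684 to 11870 ± 864 CPM and from 12196 ± 405 to 3766 ± 218 CPM (SD, n = 3 each). These are log2 fold changes of -1.23 and -1.70, on either side of that of LOX. COL3A1 (-1.48), COL4A1 (-1.50), COL5A1 (-1.05, and -0.98 without SRRM4 KO replicate 3, which ended its call) and COL11A1 (-3.18) were called lower as well. ELN, which encodes elastin, had 412, 488 and 468 counts in control replicates 1 to 3 and none in the SRRM4 KO libraries, which makes it at least 159-fold lower against a floor of 3 counts per library. COL4A2 (-0.98) and COL5A2 (-0.86) passed the adjusted p and not the fold change threshold, COL11A2 did not pass (-0.67, adjusted p 0.189), and COL2A1 was not tested.

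Of the 13 genes for activation and scaffolds, 7 were called lower, with a median of -1.15. The stricter filter left 5 of 11 called, and glmTreat, which asks whether a change exceeds the threshold, 4 of 13. BMP1, the main protease that frees active LOX, was 341 ± 30.4 CPM in control and 267 ± 28.8 CPM in SRRM4 KO cells (log2 fold change -0.36, adjusted p 0.00655). Its enhancer for procollagen, PCOLCE, fell from 157 ± 8.999 to 15.7 ± 0.859 CPM (-3.32, adjusted p 3.13e-12), and the related protease TLL2 from 2.38 ± 0.451 to 0.681 ± 0.294 CPM (-1.80). Proteins that bind LOX or BMP1 in the matrix were also called. POSTN, periostin, fell from 131 ± 24.3 to 10.5 ± 1.61 CPM (-3.65) and FMOD, fibromodulin, from 20.3 ± 1.18 to 0.406 ± 0.0441 CPM (-5.62). FN1, fibronectin, passed the adjusted p with -0.97. EFEMP2 (-1.16), the fibulin that brings LOX to elastin, FBLN5 (-1.15), the fibulin linked with LOXL1, and ADAMTS2 (-1.97), which removes the end of procollagen, were called lower. PCOLCE2 and TLL1 did not pass, at -0.34 and -0.23, nor did ADAMTS3 and ADAMTS14, at 0.41 and 0.21.

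Copper supply genes gave 0 calls among 8 tested, with a median of -0.02, and 1 (12.5%) was lower by the adjusted p, beside 20.9% of all genes. An unadjusted p under 0.05 was met by 2 lower genes and 1 higher gene. STEAP4, a metalloreductase gene with 5, 9 and 6 counts in control and 0 in every SRRM4 KO library, was below the filter, and was called lower with no filter, which made 17 list genes in all. The gene that passed, SLC31A1, the copper importer of the cell surface, was 139.8 ± 10.03 CPM in control and 100 ± 10.6 CPM in SRRM4 KO cells (-0.48, adjusted p 0.000901). ATP7A, the pump that loads copper into lysyl oxidases in the secretory pathway, stood at 45.1 ± 9.60 and 45.3 ± 2.52 CPM (0.01, 95% interval -0.27 to 0.28). The enzymes and partners of collagen lysine hydroxylation, which set the kind of cross-link that can form, had 0 calls among 7 tested and a median of 0.41. By the adjusted p 4 of them (57.1%) rose and 2 (28.6%) fell, beside 20.7% and 20.9% of all genes, and by the unadjusted p 5 and 2. PLOD2, the hydroxylase of telopeptide lysines, rose from 534 ± 59.1 to 802 ± 59.1 CPM (0.59, adjusted p 5.995e-05), and PLOD3, which acts on helical lysines and adds sugars, fell from 226 ± 24.5 to 156 ± 8.04 CPM (-0.54, adjusted p 0.000231).

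Known regulators of the family gave 1 call among 14 tested, the same share as the 7.14% of all genes called lower. Their median was -0.36, and by the adjusted p 8 (57.1%) were lower and 1 (7.14%) higher, beside 20.9% and 20.7% of all genes. The count of 8 moved with the library left out. Of the 8, 4 passed without SRRM4 KO replicate 1, 5 without SRRM4 KO replicate 2 or control replicate 3, and 8 without SRRM4 KO replicate 3. With the replicate number as a block 6 passed. Whether the library or the smaller number of libraries lowered the count was not tested. The called gene was EPAS1, which encodes a hypoxia-inducible factor, HIF-2α. It was 1028, 1019 and 1033 CPM in control replicates 1 to 3 and 461, 466 and 444 CPM in SRRM4 KO replicates 1 to 3. Its log2 fold change was -1.17 (SE 0.0656), with an adjusted p of 2.58e-09 in edgeR. HIF1A stood at 630 ± 104 and 665 ± 45.0 CPM (0.08, adjusted p 0.566), and TGFB1, whose signal raises LOX in many cells, at 200.3 ± 23.9 and 199 ± 10.2 CPM (-0.01, adjusted p 0.930). Also lower by the adjusted p were TWIST1 (-0.98), TGFBR1 (-0.54), TGFB3 (-0.49), ARNT (-0.42), SMAD4 (-0.40), SNAI2 (-0.31) and SMAD2 (-0.26). TGFBR2 (0.33) was higher, and SNAI1 (-0.94), TGFB2 (-0.06) and SMAD3 (0.05) did not pass. Among 8 tested genes of the hypoxia response, 0 were called. Their median was 0.46, and by the adjusted p 5 (62.5%) rose, beside 20.7% of all genes. VEGFA (-0.08), ANKRD37 (-0.15) and KDM3A (0.05) did not pass, and CA9 and EGLN3, at 0 to 6 counts per library, were not tested. The relation of these genes to the level of LOX was not tested. BNIP3, a mitophagy receptor, rose from 56.7 ± 0.951 to 108.7 ± 2.598 CPM (0.94) and ADM, adrenomedullin, from 55.5 ± 5.70 to 92.4 ± 3.69 CPM (0.73). Of 3 other amine oxidases tested, MAOA, a mitochondrial enzyme that works with flavin and not copper, was called lower (-1.23), and the copper amine oxidases AOC1, AOC2 and AOC3 were below the filter.

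**Figure D3:**
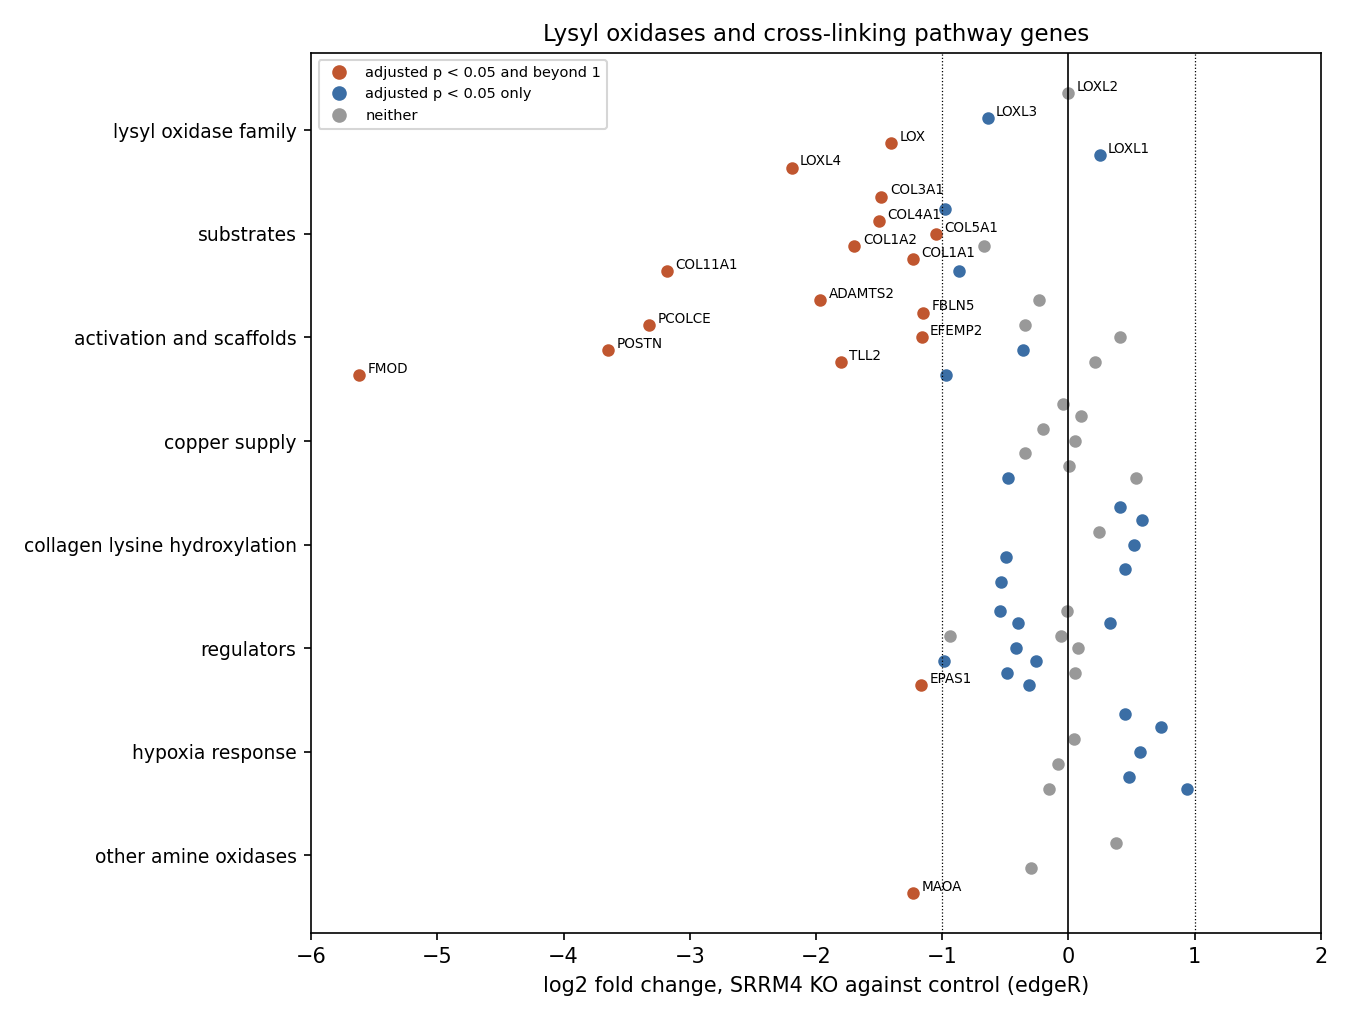
Log2 fold change of SRRM4 KO against control (horizontal axis) for the 5 family members and for the tested genes of 7 lists (rows), each point a gene, coloured by whether it passed the adjusted p and the fold change threshold (dotted lines at -1 and 1). Called genes, and all members, are named. All called genes lie left of -1, most of them among substrates and activation and scaffold genes, while hypoxia response genes reach up to 0.94. ELN, with 0 counts in every SRRM4 KO library, is not drawn.

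The calls of LOX and LOXL4 were made under every alternative tried, and those alternatives are drawn as ticks around each member's value. With 1 library left out, the log2 fold change of LOX ran from -1.46 to -1.33 and that of LOXL4 from -2.57 to -1.97. LOXL3 ran from -0.75 to -0.58 and LOXL1 from 0.15 to 0.31. Tested against the fold change threshold itself with glmTreat, LOX had an adjusted p of 0.000294 and LOXL4 of 0.0185.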

How the data were processed

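The mRNA of 3 control and 3 SRRM4 KO libraries of UE7T-9 cells was sequenced, and samples were grouped by their titles. The authors deposited raw counts per gene, without normalization. The submitters' processing notes name HISAT2 2.0.5, featureCounts 1.5.0-p3 and DESeq2, and their settings, the genome build and the treatment of shared reads are not given in the sources used here. All 58735 gene IDs were found in GENCODE release 29 (GRCh38), 58724 with identical start and end, so coordinates are given in that build.

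Counts were tested with edgeR 4.0.16 in R 4.3.3 (TMM, filterByExpr, prior count 0.125, quasi-likelihood test, Benjamini-Hochberg adjustment over 15341 genes). Calls were made at an adjusted p under 0.05 with a change of over 1 on the log2 scale. The SE was the log2 fold change over the root of F. CPM used TMM-scaled library sizes, and CPM per kilobase the gene length in the table, which equals the union of annotated exon bases for all 5 members. Library totals of 21496117 to 23868323 counts set the precision. The procedure was tested on simulated data.

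The members and lists were chosen with earlier results of these data known. The genes named were all members, called list genes, at most 2 abundant others per list, genes overlapping a member, and the 2 protein-coding genes nearest to each member, and any further list gene was named after its values were seen. Alternatives were DESeq2 size factors, upper-quartile scaling, 2 other filters, DESeq2 1.42.0, glmTreat, the adjusted p alone, protein-coding genes alone, the replicate number as a block, TPM for levels, and each library left out. Promoters came from RefSeq (GRCh38.p14), which matched 4 of 5 members. The motifs counted, on both strands, were the hypoxia core (ACGTG alone, or with GCGTG), the GC box (GGGCGG), the TATA box (TATAAA) and the SMAD motif (CAGAC). Of the haematopoietic marker list, 1 gene is not reported here.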

Additional observations from a re-analysis of the deposited data

How the results depend on the processing

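LOX and LOXL4 were the members called lower under all 15 alternatives, except that without a fold change threshold LOXL3 joined them, to give 3 lower, and LOXL1 made 1 higher where none was otherwise. The same setting gave 30 list genes lower and 10 higher, in place of 16 and 0. With glmTreat 11 list genes were lower, without COL5A1, TLL2, EFEMP2, FBLN5 and MAOA. COL4A2, TWIST1 and FN1, close to the threshold, were called under some settings, among them without control replicate 1 (COL4A2 -1.09, TWIST1 -1.12), without SRRM4 KO replicate 2 (-1.02 and -1.08), and without SRRM4 KO replicate 1 (COL4A2 -1.05, FN1 -1.01) or control replicate 2 or 3 (FN1 -1.004 and -1.005). The LOXL2 log2 fold change turned negative with DESeq2 size factors, no filter and the DESeq2 test (-0.0005 each), upper-quartile scaling (-0.0307), at least 10 counts per library (-0.0184) and protein-coding genes only (-0.0153). With a library left out it ran from -0.0808 to 0.0456, so no direction is given for LOXL2. LOXL1 missed an adjusted p of 0.05 with upper-quartile scaling (0.0797), at least 10 counts (0.0646), protein-coding genes only (0.0591), and without control replicate 1 (0.0618) or 2 (0.0515) or SRRM4 KO replicate 1 (0.136) or 2 (0.233). The cause was not tested.

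Over all genes, 360 were called higher and 577 lower with glmTreat and 3171 and 3213 without a fold change threshold, where 836 and 1096 were called as reported. Control and SRRM4 KO libraries share replicate numbers. The deviations of same-numbered libraries correlated at -0.055, 0.083 and -0.053, and those of differently numbered libraries at -0.114 to 0.158. No pairing by number was thus seen, though so few libraries cannot exclude it. With the replicate block the LOX log2 fold change was -1.40, 2 members and 16 list genes were called lower, and 842 genes in all were called higher and 1093 lower. The LOX share of the family level ran from 46.5% to 50.8% in control and from 24.7% to 27.0% in SRRM4 KO cells with a library left out. Depth limits LOXL4, at 10 to 89 counts per library.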
